A study of Mus musculus with 2 samples.

Results

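Wfs1, Fibcd1, Mpped1, Pou3f1 and Spink8 are 5 genes known from mouse brain as marking the pyramidal neurons of CA1, a field of the hippocampus. They were matched by symbol and gene identifier in the deposited tables, and all 5 were found among 55536 annotated genes. The samples are total RNA of tissue labelled as layer of hippocampus, with the layer not named, from female B6CASTF1/J mice, the hybrid of the C57BL/6J and CAST/EiJ strains, aged 18 to 20 months. The labels give 1 group of 2 libraries, called replicate 1 and replicate 2, each made from 300 ng of RNA after ribosomal RNA was reduced, and name no treatment, transgene or control. A single donor label is shared by both libraries, and the labels do not show whether 1 animal or several gave the tissue. With 1 group there is no contrast to test, and a difference between the libraries describes those libraries, which may be technical.

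CA1 pyramidal neurons receive excitatory input from CA3 and from the entorhinal cortex, and send the main output of the hippocampus to the subiculum and cortex. Their field was drawn by anatomists from cell shape and position, and genes with an expression border at CA2 were later used to mark it. The 5 genes are unrelated in sequence family and include a membrane protein of the endoplasmic reticulum, a cell-surface receptor, a protein of the metallophosphoesterase family, a transcription factor and a secreted protease inhibitor. Bulk RNA does not place a transcript in a cell, and some of these genes are also known from other cells, such as Wfs1 in neocortex and amygdala and Pou3f1 in neocortex and in Schwann cells. Genes of the dentate gyrus, another field of the hippocampus, reached 1 TPM in both libraries in 7 of 7 cases. Among them Prox1, a transcription factor of dentate granule cells, was at 33.8 TPM (replicate 1) and 33.7 TPM (replicate 2), and C1ql2, a synaptic organizer of their axons, at 39.8 and 43.5 TPM. Neocortical genes reached 1 TPM in 6 of 7 cases. That level was reached in both libraries by 12720 nuclear protein-coding genes, so such counts do not show which fields the tissue held. The excitatory neuron genes Slc17a7, Camk2a, Nrgn and Hpca, which are high across the forebrain, together held 3425 TPM (replicate 1) and 3153 TPM (replicate 2), and none of the 4 was at 0.

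Genes held 35358099 counts in all in replicate 1 and 36307276 in replicate 2, after expected counts were rounded. An expected count is the quantifier's estimate of how many reads a gene received, and it can be a fraction. TPM is an abundance corrected for transcript length that sums to 1000000 over a library, so it is the scale used here to compare genes with each other. Levels are given from the gene table in the RSEM column layout unless the transcript tables in the kallisto column layout are named. The genome was that of C57BL/6J, while these hybrids also carry CAST/EiJ alleles, and whether reads of those alleles were assigned less often was not tested.

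Mpped1 was the most abundant of the 5 genes and Pou3f1 the least. Mpped1 was at 79.0 TPM (replicate 1) and 79.9 TPM (replicate 2). In the same order, Wfs1 followed at 58.5 and 54.5 TPM, and Fibcd1 at 48.8 and 40.1 TPM. Spink8 was at 27.1 and 23.8 TPM, and Pou3f1 at 19.9 and 16.9 TPM. The libraries of neighbouring genes in this order did not overlap, and the order Mpped1, Wfs1, Fibcd1, Spink8, Pou3f1 was the same in both libraries and in both layouts. Mpped1 stood above 91.7% of the 12720 nuclear protein-coding genes that reached 1 TPM in both libraries, whose median was 14.4 TPM. Wfs1 stood above 87.3% of them, Fibcd1 above 83.1%, Spink8 above 68.6% and Pou3f1 above 58.0%. In bulk tissue, fewer cells of a type and less RNA per cell cannot be told apart, so these levels do not count CA1 neurons.

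**Figure D1:**
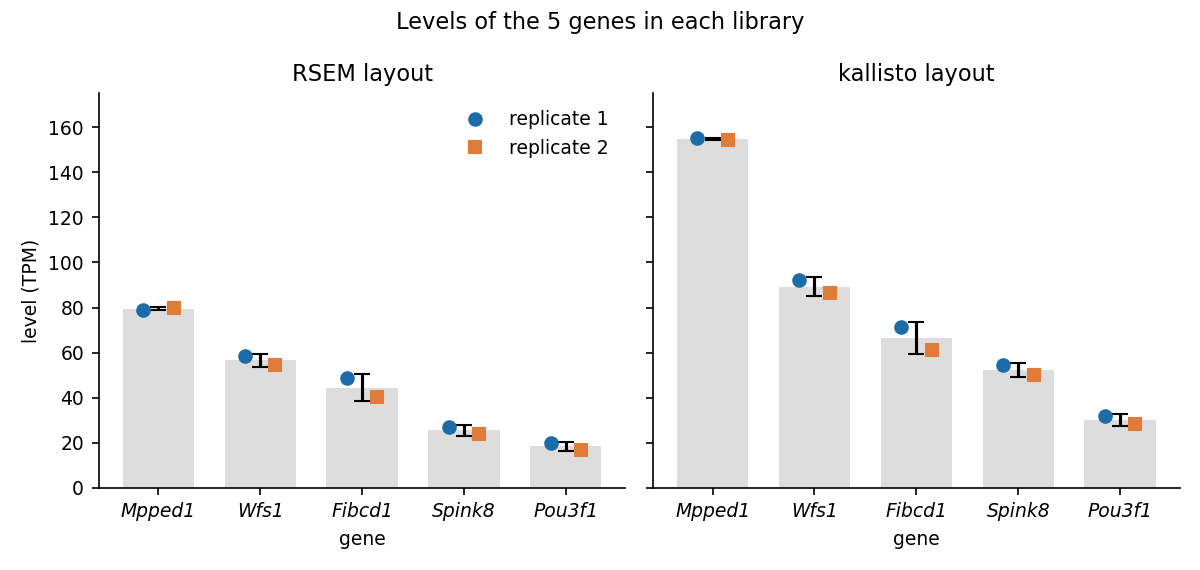
Levels of the 5 genes in TPM in the RSEM layout (left) and the kallisto layout (right). Bars are means of 2 libraries with the SD, and points are the libraries. Mpped1 leads and Pou3f1 is lowest in every library of both layouts, and all 5 genes stand higher in the kallisto layout, with Mpped1 at 79.4 TPM in the RSEM layout and 155 TPM in the kallisto layout.

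The size of each level depended on the layout. The ratio of RSEM-layout to kallisto-layout TPM was 0.684 in replicate 1 and 0.654 in replicate 2 for Fibcd1, 0.634 and 0.631 for Wfs1, and 0.623 and 0.596 for Pou3f1. It was lower for Mpped1, at 0.509 and 0.518, and for Spink8, at 0.496 and 0.474. Over 12878 protein-coding genes the median ratio was 0.598, with quartiles of 0.532 and 0.646, so the shift is shared by most genes. Mpped1 and Spink8 lay below the lower quartile and Fibcd1 above the upper one. Counts differed far less between layouts. Their ratio lay between 0.890 and 1.06 over the 5 genes and both libraries.

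Wfs1 encodes wolframin, a membrane protein of the endoplasmic reticulum that takes part in calcium handling and in the response to misfolded protein, and in humans its loss causes Wolfram syndrome. The gene (ENSMUSG00000039474.13) lies on mm10 chromosome 5, 36966104 to 36989205, on the minus strand. It held 5158 expected counts in replicate 1 and 5229 in replicate 2. Scaled for library size, it was 1.01-fold in replicate 1 over replicate 2, with an exact 95% counting interval of 0.972 to 1.05. The interval spans equality, so no difference between the libraries was detectable at this depth.

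Wfs1 has 3 annotated transcripts, and the 2 full-length ones differ in their proteins. Wfs1-201 encodes 890 residues and Wfs1-202 encodes 814, because the last exon of Wfs1-202 begins 228 bases further in, at an in-frame position that removes 76 codons. The stretch is shown because it is what separates the 2 proteins. In both lines the reading strand is the minus strand of GRCm38 chromosome 5. Capitals mark the 228 coding bases of Wfs1-201 that Wfs1-202 lacks (chr5:36968451-36968678). Lower-case letters are the end of the exon before and bases of the last exon, which in Wfs1-201 follow the capitals within that exon.
Wfs1-201: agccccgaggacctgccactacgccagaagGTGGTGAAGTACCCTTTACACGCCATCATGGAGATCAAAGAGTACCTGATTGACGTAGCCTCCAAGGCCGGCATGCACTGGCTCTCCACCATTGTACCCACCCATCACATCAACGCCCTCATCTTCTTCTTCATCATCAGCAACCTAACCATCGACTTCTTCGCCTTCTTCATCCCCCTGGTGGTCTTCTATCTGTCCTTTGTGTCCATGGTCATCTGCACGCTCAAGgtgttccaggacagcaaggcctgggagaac
Wfs1-202: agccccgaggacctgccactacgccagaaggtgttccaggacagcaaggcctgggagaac
In the spliced Wfs1-201 transcript the same 6 letters, AAGGTG, stand across both edges of the stretch. Against that transcript, the missing 228 bases can therefore be placed at shifted positions without changing the sequence of Wfs1-202.

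Wfs1-201 was the larger in both layouts, and by how much depended on the layout. In the RSEM layout it took 63.8% of the gene's TPM in replicate 1 and 65.7% in replicate 2, and Wfs1-202 took 34.3% in each. In the kallisto layout Wfs1-201 took 86.0% and 90.2%, and Wfs1-202 took 9.13% and 9.79%. The shares of either transcript did not overlap between layouts, while the libraries of a layout lay closer to each other than to the other layout. Every exon base of Wfs1-202 also lies in an exon of Wfs1-201, so only the joint into its last exon is its own. Only 24 of its stretches of 31 bases occur in no other Wfs1 transcript, against 352 for Wfs1-201. Wfs1-203, annotated as subject to nonsense-mediated decay, the pathway that removes RNAs with a premature stop codon, was at 1.12 TPM in replicate 1 and was listed at 0 in replicate 2. The kallisto layout listed it likewise at 4.48 TPM in replicate 1 and at 0 in replicate 2.

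Genes of the endoplasmic reticulum stress response, listed because wolframin belongs to this compartment, were measured beside Wfs1. All 18 had a mean count of at least 50, and 17 of them were higher in replicate 1 by any amount, against 49.9% of the 14307 genes with such a count. With libraries scaled by the ERCC spike-ins the number was 15, as Atf6 and Dnajb9 changed side. Their median log2 ratio of replicate 1 over replicate 2 was 0.11, against 0.00 over all those genes. Over 1.2-fold higher in replicate 1 were 5 of the 18, against 4.75% of all genes, and none was over 1.2-fold higher in replicate 2, against 5.62%. Hspa5, the main chaperone of this compartment, held 9310 and 7323 counts, 1.30-fold in replicate 1 over replicate 2 (95% counting interval 1.26 to 1.34). Manf, a secreted stress-response protein, was at 1.30-fold (1.2 to 1.41), and Sdf2l1, a chaperone cofactor, at 1.36-fold (1.16 to 1.60). Ddit3, the transcription factor CHOP, was at 1.35-fold (1.15 to 1.58) and Pdia4, a disulfide isomerase, at 1.22-fold (1.14 to 1.31). A second annotated entry of Ddit3 held 0 counts in both libraries and is not among the 18. The sensors Ern1, Atf6 and Eif2ak3 were at 1.01, 1.00 and 1.01-fold, and Canx, the chaperone calnexin, was the 1 gene below equality at 0.996-fold. Cisd2, whose human counterpart is the other Wolfram syndrome gene, was at 13.1 and 11.7 TPM and 1.03-fold (0.941 to 1.12). Wfs1, at 1.01-fold, lay near the sensors and Cisd2 and below the 5 genes past 1.2-fold. Markers of oligodendrocytes and the counted markers of choroid plexus were higher in the same library, with values given beside the other ratios. The part of these markers in the ratios above was not tested.

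Fibcd1 encodes a membrane receptor with a fibrinogen-like domain that binds acetylated sugars such as chitin and glycosaminoglycans. The gene (ENSMUSG00000026841.7) lies on chromosome 2, 31813290 to 31846005, on the minus strand, with 7 exons in its single annotated transcript of 4751 bases, which encodes 459 residues. Its counts were 5788 in replicate 1 and 5091 in replicate 2, which scaled to 1.16-fold in replicate 1 over replicate 2 (95% counting interval 1.12 to 1.21), the highest of the 5 ratios. The absolute log2 ratio, 0.22, was larger than that of 86.0% of all 14307 genes. Other genes with a fibrinogen-like domain differed widely in level. Tnr, a perineuronal net protein, was at 55.3 and 51.4 TPM. The remaining 6 genes, Fgl2, Tnc, Angpt1, Angpt2, Angptl4 and Mfap4, lay between 0.590 and 1.94 TPM. Over 1.2-fold higher in replicate 2 were 3 of these 7 genes, against 5.62% of all genes, and each of the 3 averaged fewer than 200 counts. Tnc was at 0.701-fold in replicate 1 over replicate 2 (0.556 to 0.880), while the intervals of Fgl2 (0.595 to 1.12) and Angptl4 (0.478 to 1.01) spanned equality.

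Mpped1 encodes a brain-enriched protein of the metallophosphoesterase family, enzymes that cleave phosphate esters with bound metal ions, and its own substrate is not well established. The gene (ENSMUSG00000041708.12) lies on chromosome 15, 83779467 to 83858494, on the plus strand. Mpped1 was counted 5926 times in replicate 1 and 6358 in replicate 2. Scaled, this was 0.955-fold in replicate 1 over replicate 2 (95% counting interval 0.921 to 0.989), so Mpped1 was the 1 gene of the 5 higher in replicate 2. Its absolute log2 ratio, 0.07, was larger than that of 48.4% of all genes. Its paralog Mpped2 was at 16.8 and 14.9 TPM and 1.05-fold (0.951 to 1.16).

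Mpped1 has 11 annotated transcripts, and which of them led depended on the layout. Mpped1-201 and Mpped1-203 encode the same 326 residues and differ only in where they start. Mpped1-201 begins at position 83780023 with an exon of 85 bases, and Mpped1-203 begins at 83784829 with an exon of 101 bases. Both positions are also starts in RefSeq. The 250 bases before each, on the plus strand of GRCm38.p6 as RefSeq gives them, are shown because the leading transcript of each layout has a different one of these starts. They are chr15:83779773-83780022 for Mpped1-201 and chr15:83784579-83784828 for Mpped1-203.
Before Mpped1-201: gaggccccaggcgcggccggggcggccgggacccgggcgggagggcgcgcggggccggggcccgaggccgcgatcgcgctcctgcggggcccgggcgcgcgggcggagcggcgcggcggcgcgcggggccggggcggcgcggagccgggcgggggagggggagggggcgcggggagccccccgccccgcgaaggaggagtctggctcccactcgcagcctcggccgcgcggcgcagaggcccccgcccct
Before Mpped1-203: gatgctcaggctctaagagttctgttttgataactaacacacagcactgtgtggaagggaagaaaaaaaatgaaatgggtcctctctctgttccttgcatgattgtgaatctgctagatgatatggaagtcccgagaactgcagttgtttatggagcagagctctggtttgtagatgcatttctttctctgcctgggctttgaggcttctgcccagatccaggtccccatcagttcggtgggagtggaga
The window before Mpped1-201 is 88.8% G and C with 47 CG dinucleotides, and 99.99% of all 32851 RefSeq promoter windows of this length hold less G and C. The window before Mpped1-203 is 46.8% G and C with 2 CG dinucleotides, against medians of 52.4% and 6 over all windows. GGGCGG, counted on both strands, occurs 7 times before Mpped1-201 and not before Mpped1-203, and 32.7% of all windows hold it. TATAAA, on both strands, is in neither window, and 12.4% of all windows hold it.

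In the RSEM layout Mpped1-201 was at 67.5 TPM (replicate 1) and 67.0 TPM (replicate 2), which were 85.4% and 83.8% of the gene. Mpped1-203 was listed at 0 in replicate 1 and was at 1.36 TPM in replicate 2. The authors' credibility intervals, whose level the headers do not state, lay far apart, at 61.1 to 67.3 TPM for Mpped1-201 and at most 2.80 TPM for Mpped1-203 in replicate 1, and at 59.9 to 67.3 and at most 5.18 TPM in replicate 2. They lie around the posterior mean, which is why a TPM can fall at or beyond a bound. The kallisto layout gave the reverse order. There Mpped1-201 was at 0.117 TPM (replicate 1) and 0.0656 TPM (replicate 2), while Mpped1-203 was at 62.4 and 68.7 TPM, or 40.2% and 44.5% of the gene. Each layout repeated its own choice in both libraries, so the gap between layouts was far larger than the gap between libraries. Within the gene, 27 stretches of 31 bases are found only in Mpped1-201 and 101 only in Mpped1-203.

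The layouts also differed on transcripts with another reading frame. Mpped1-204 starts elsewhere and lacks an exon of 226 bases (chr15:83836273-83836498), a length that is not a multiple of 3. Its frame then shifts, it ends after 163 residues, and the transcript is annotated as subject to nonsense-mediated decay. The joint is shown with and without that exon, on the plus strand of GRCm38. Capitals mark the start of the exon in Mpped1-201 and the premature stop codon in Mpped1-204.
Mpped1-201: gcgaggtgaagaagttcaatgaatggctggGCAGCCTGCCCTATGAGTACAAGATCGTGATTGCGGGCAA
Mpped1-204: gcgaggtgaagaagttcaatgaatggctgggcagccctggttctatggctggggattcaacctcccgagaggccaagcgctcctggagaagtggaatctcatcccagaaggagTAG
Mpped1-204 took 5.44% of the gene in replicate 1 and 4.35% in replicate 2 in the RSEM layout, and 30.03% and 28.8% in the kallisto layout. The 2 transcripts with the frame of 326 residues together took 85.4% and 85.5% in the RSEM layout, and 40.3% and 44.5% in the kallisto layout. In the kallisto layout the libraries also parted on 2 shorter transcripts. Mpped1-207, an incomplete model of 659 bases, took 24.2% in replicate 1 and 14.8% in replicate 2, and Mpped1-208 took 4.43% and 10.6%. In the RSEM layout Mpped1-207 was listed at 0 in replicate 1 and took 0.600% in replicate 2, and Mpped1-208 took 4.04% and 4.53%.

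**Figure D2:**
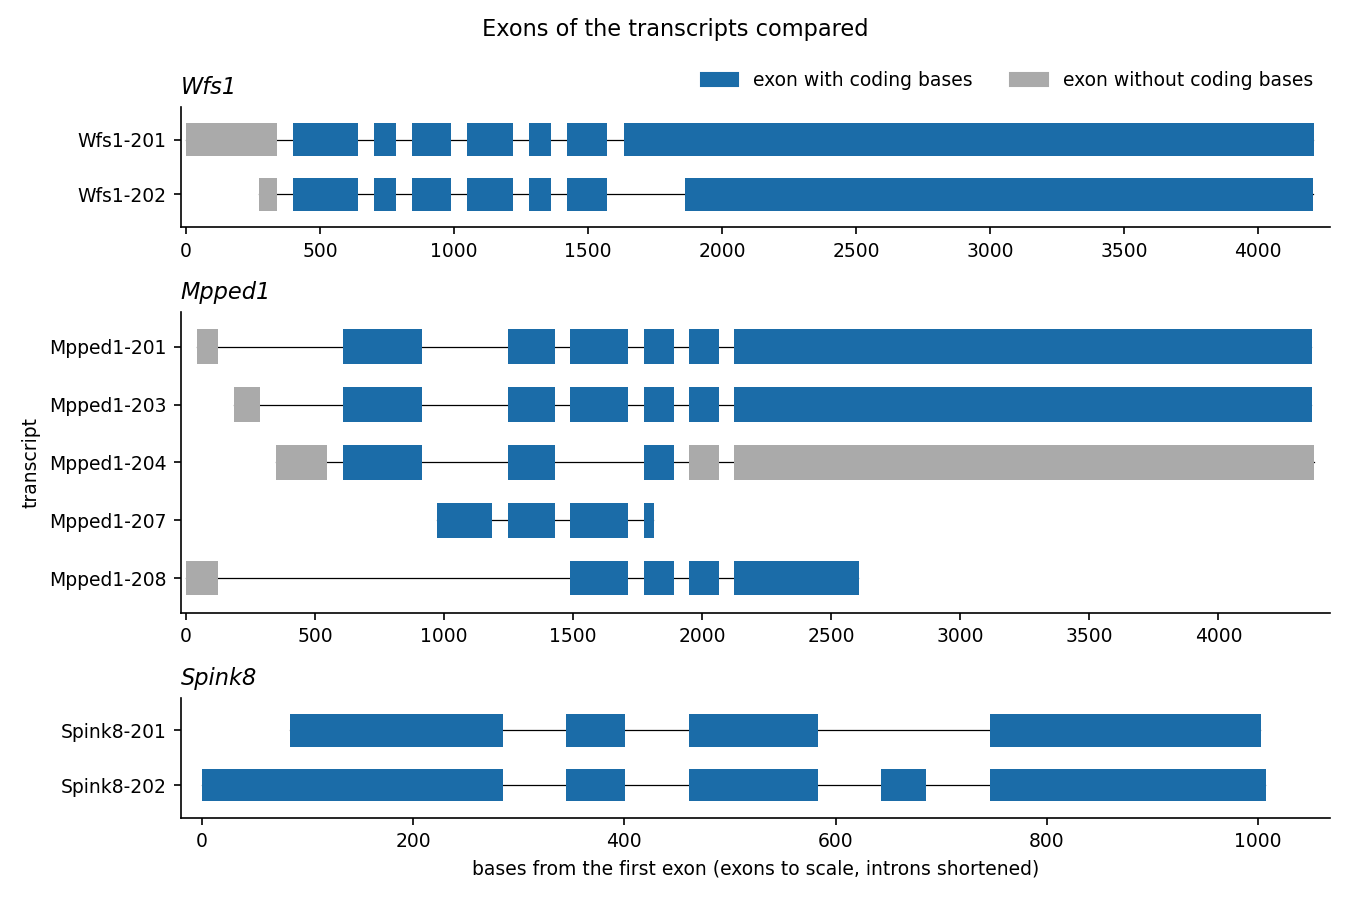
Exons of the transcripts of Wfs1, Mpped1 and Spink8 that are compared, drawn 5′ to 3′ and to scale in bases, with introns shortened. Blue exons hold at least some coding bases, untranslated ends included, and grey exons hold none. Mpped1-201 and Mpped1-203 differ only in their start exon, Mpped1-204 lacks an exon of 226 bases, Wfs1-202 lacks 228 bases of the last exon of Wfs1-201, and Spink8-201 lacks an exon of 43 bases.

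**Figure D3:**
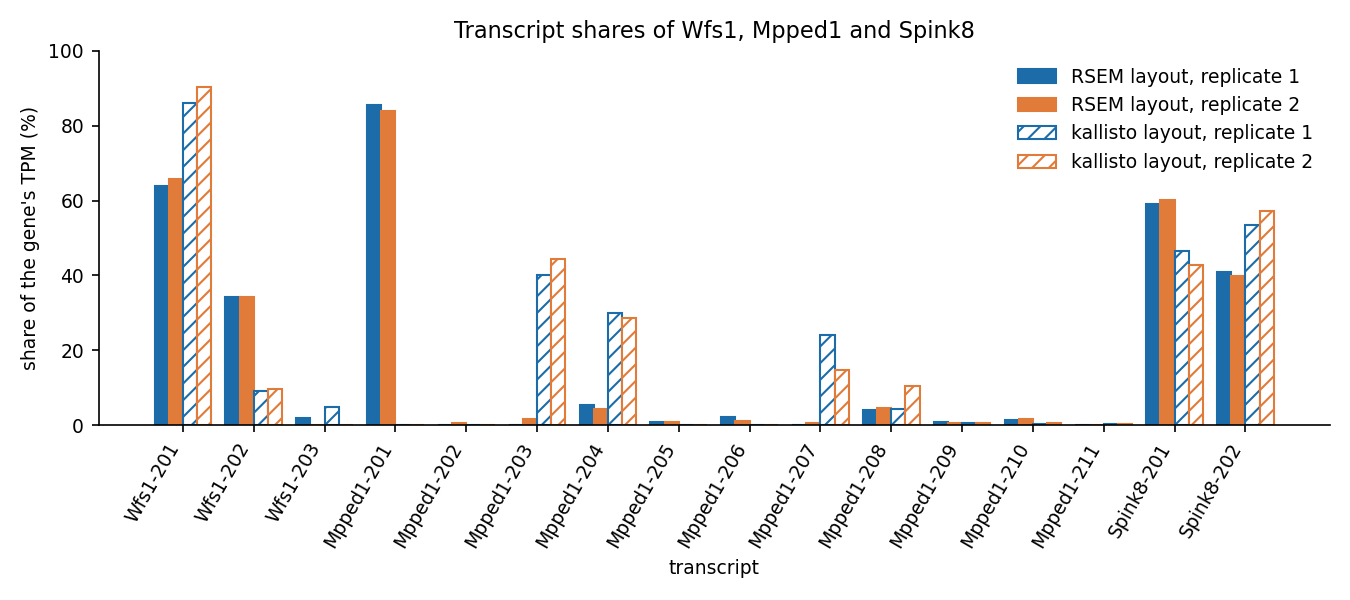
Share of each gene's TPM, in percent, taken by each transcript of Wfs1, Mpped1 and Spink8. Filled bars are the RSEM layout, hatched bars the kallisto layout, and colours the 2 libraries. Mpped1-201 holds 83.8% to 85.4% in the RSEM layout and 0.0425% to 0.0752% in the kallisto layout, where Mpped1-203 leads.

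Pou3f1 encodes a transcription factor of the POU homeodomain class that is known for timing myelination in Schwann cells and that marks CA1 pyramidal neurons early in development. The gene (ENSMUSG00000090125.3) lies on chromosome 4, 124656807 to 124660655, on the plus strand, and is a single exon of 3849 bases encoding 449 residues. Pou3f1 was counted 1899 times in replicate 1 and 1726 times in replicate 2, which scaled to 1.13-fold in replicate 1 over replicate 2 (95% counting interval 1.06 to 1.2). The absolute log2 ratio, 0.17, was larger than that of 80.2% of all genes. The antisense gene Gm2164 shares 330 bases of exon with the start of Pou3f1 on the other strand. Its own counts were 42 and 47, and the strand setting of the counting is not given in the sources used here, so reads of the shared bases may have been divided between the 2 genes. Of the same class, Pou3f3 was at 27.1 and 24.6 TPM, above Pou3f1. Pou3f2 was at 4.30 and 3.53 TPM and Pou3f4 at 2.30 and 2.44 TPM, both below it. Pou6f1, at 39.7 and 39.2 TPM, was the highest of the 8 other POU genes listed, and Pou4f1 held 2 and 4 counts, near the floor of 3. Pou3f1, Pou3f2 and Pou3f3 were all higher in replicate 1, at 1.13, 1.17 (1.04 to 1.31) and 1.05-fold (1.01 to 1.10), and Pou3f4 was at 0.904-fold (0.729 to 1.12).

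Spink8 encodes a small secreted protein with a Kazal domain, a fold that blocks serine proteases. The gene (ENSMUSG00000050074.12) lies on chromosome 9, 109812280 to 109826633, on the plus strand. Only 409 counts in replicate 1 and 383 in replicate 2 fell to it, the fewest reads of the 5 genes, although its short transcripts put it above Pou3f1 in TPM. It was 1.09-fold in replicate 1 over replicate 2 (95% counting interval 0.949 to 1.26), which spans equality, so no difference was detectable at this depth. On short transcripts the layouts also differ most, in proportion, in the length they divide by. For Spink8-201, of 637 bases, the effective length was 538 in the RSEM layout in both libraries, and 302 and 304 in the kallisto layout. Spink8 was the highest of the Kazal inhibitor genes examined. Of 7 other Kazal inhibitor genes 5 held no count in either library, Spink2 held 1 count in replicate 1 and 0 in replicate 2, and Spink10 was at 2.23 and 1.69 TPM. A count of 0 allows up to 3 counts in a library.

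Of 3 Spink8 transcripts, Spink8-203 was listed at 0 in all 4 tables and the other two shared the gene. Spink8-202 includes an exon of 43 bases (chr9:109824509-109824551) that Spink8-201 skips, and the 2 frames therefore end differently, at 105 residues in Spink8-202 and 95 in Spink8-201. The ends of both frames are shown to their stop codons, on the plus strand of GRCm38 from the last 30 bases of the exon before, with capitals marking the 43 bases.
Spink8-201: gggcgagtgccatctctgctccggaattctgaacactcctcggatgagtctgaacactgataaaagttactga
Spink8-202: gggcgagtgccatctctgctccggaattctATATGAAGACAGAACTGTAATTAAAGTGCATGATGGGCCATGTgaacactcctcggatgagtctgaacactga
Spink8-201 led in the RSEM layout with 59.0% in replicate 1 and 60.3% in replicate 2, against 41.0% and 39.8% for Spink8-202. The authors' credibility intervals overlapped in replicate 1, at 12.8 to 18.4 TPM for Spink8-201 and 8.78 to 13.1 TPM for Spink8-202, and lay just apart in replicate 2, at 11.4 to 16.6 and 7.31 to 11.3 TPM. In the kallisto layout Spink8-202 led with 53.4% and 57.2%, against 46.6% and 42.8% for Spink8-201. The leading transcript was thus the same in both libraries and different between layouts, as it was for Mpped1.

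By point ratio, Fibcd1, Pou3f1 and Spink8 lay further apart between the libraries than the typical gene, while Mpped1 and Wfs1 did not. For Spink8 the counting interval spanned equality, so its place against the typical gene is not resolved. None of the 5 genes passed a fold threshold on scaled counts. Their median absolute log2 ratio was 0.13, against 0.07 over all genes tested. The absolute log2 ratios of Fibcd1, Pou3f1 and Spink8 exceeded those of 86.0%, 80.2% and 71.8% of genes, and those of Mpped1 and Wfs1 exceeded 48.4% and 12.6%. None of the 5 was over 2-fold apart, a rule that 55 of 14307 genes (0.384%) met, and none was over 1.2-fold apart, against 10.4% of those genes. All 5 passed the count minimum. Higher in replicate 1 by any amount were 4 of 5, against 49.9% of all genes, and with 5 genes that count is a description. Intervals of Fibcd1 and Pou3f1 lay above equality, that of Mpped1 lay below it, and those of Wfs1 and Spink8 spanned it. The intervals cover counting error only. Intervals of Fibcd1 and Mpped1 did not overlap each other. The TPM of Fibcd1 was 0.618 of that of Mpped1 in replicate 1 and 0.502 in replicate 2. The level of Mpped1 itself averaged 79.4 ± 0.665 TPM and that of Fibcd1 44.5 ± 6.11 TPM (SD, n = 2 each).

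**Figure D4:**
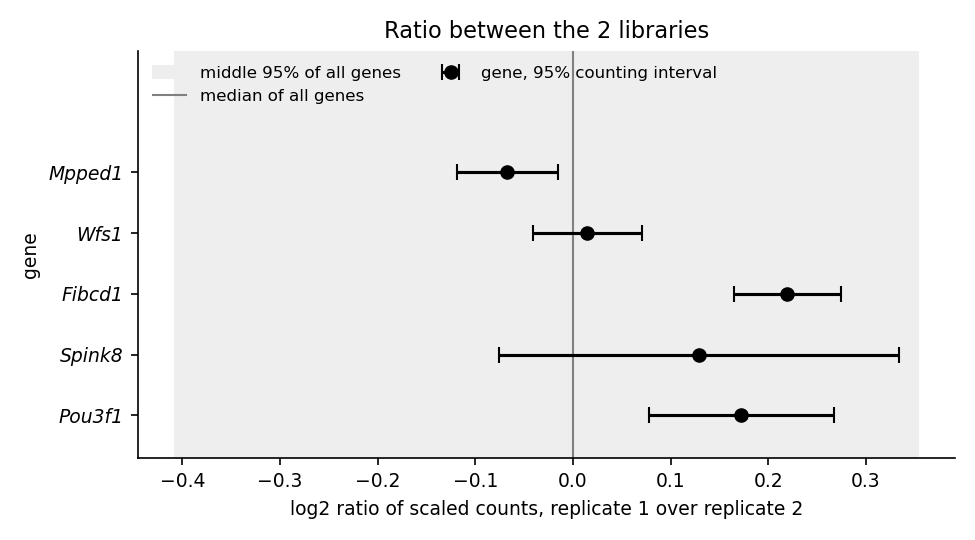
Log2 ratio of scaled counts, replicate 1 over replicate 2, for each of the 5 genes, with exact 95% counting intervals. The grey band holds the middle 95% of all 14307 genes and the line is their median. All 5 genes lie inside the band, from -0.07 for Mpped1 to 0.22 for Fibcd1.

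Other hippocampal field genes and markers of other cells were set beside these ratios. The median log2 ratio of replicate 1 over replicate 2 was 0.13 over the 5 genes. It was 0.04 over 8 other CA1 and pyramidal genes, 0.10 over 6 CA2 genes, 0.08 over 5 counted CA3 genes and 0.04 over 7 dentate granule cell genes, against 0.00 over all genes. Among the 8 other CA1 and pyramidal genes Gpr161, a ciliary receptor, was over 1.2-fold higher in replicate 1, at 1.22-fold (1.17 to 1.28). Dcn, a matrix proteoglycan gene that is also a fibroblast gene, was over 1.2-fold higher in replicate 2, at 0.780-fold (0.720 to 0.846). The summed TPM of the 5 genes was 233 in replicate 1 and 215 in replicate 2. TPM shares a fixed total with misc_RNA, a class of structural RNAs, which took 35.7% of TPM in replicate 1 and 38.1% in replicate 2.

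Several marker lists differed more between the libraries than the 5 genes did. Like the other lists here, they were chosen with earlier results of these data known, so their counts are descriptions. Oligodendrocyte markers were higher in replicate 1 in 5 of 5 genes, 4 of them over 1.2-fold, against 49.9% and 4.75% of all genes, with summed levels of 1128 and 816 TPM. Choroid plexus markers summed to 159 and 55.7 TPM, of which Ttr alone held 150 and 49.1 TPM. Of 3 counted genes, 2 were over 2-fold higher in replicate 1, where 0.384% of all genes were over 2-fold apart in either direction. Kl, the other counted gene, was at 1.16-fold (1.03 to 1.31). Below the count minimum, Folr1 held 23 and 12 counts, while Kcnj13 went the other way with 33 and 46. Neocortical genes were higher in replicate 2 in 7 of 7, where 49.9% of all genes were higher in replicate 1. Of the 7, 3 were over 1.2-fold higher in replicate 2, against 5.62% of all genes. The intervals of Fezf2 (0.877 to 1.03), Rspo1 (0.716 to 1.15) and Scnn1a (0.789 to 1.16) spanned equality. The list summed to 67.4 TPM in replicate 1 and 81.8 TPM in replicate 2. Meningeal markers summed to 30.7 and 62.8 TPM, with 6 of 6 over 2-fold higher in replicate 2, against the same 0.384%. The subicular genes Fn1 and Slc17a6 were at 0.669-fold (0.632 to 0.707) and 0.720-fold (0.638 to 0.811) in replicate 1 over replicate 2, while Nts was at 1.09-fold (0.857 to 1.40). No gene of the oligodendrocyte, choroid plexus, neocortical or meningeal lists was at 0 in both libraries. By their medians, the oligodendrocyte and choroid plexus lists were higher in the same library as Fibcd1 and Pou3f1. The neocortical and meningeal lists were higher in the same library as Mpped1, and the part of these lists in those ratios was not tested. Interneuron, astrocyte and microglial lists had medians between -0.07 and -0.02.

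**Figure D5:**
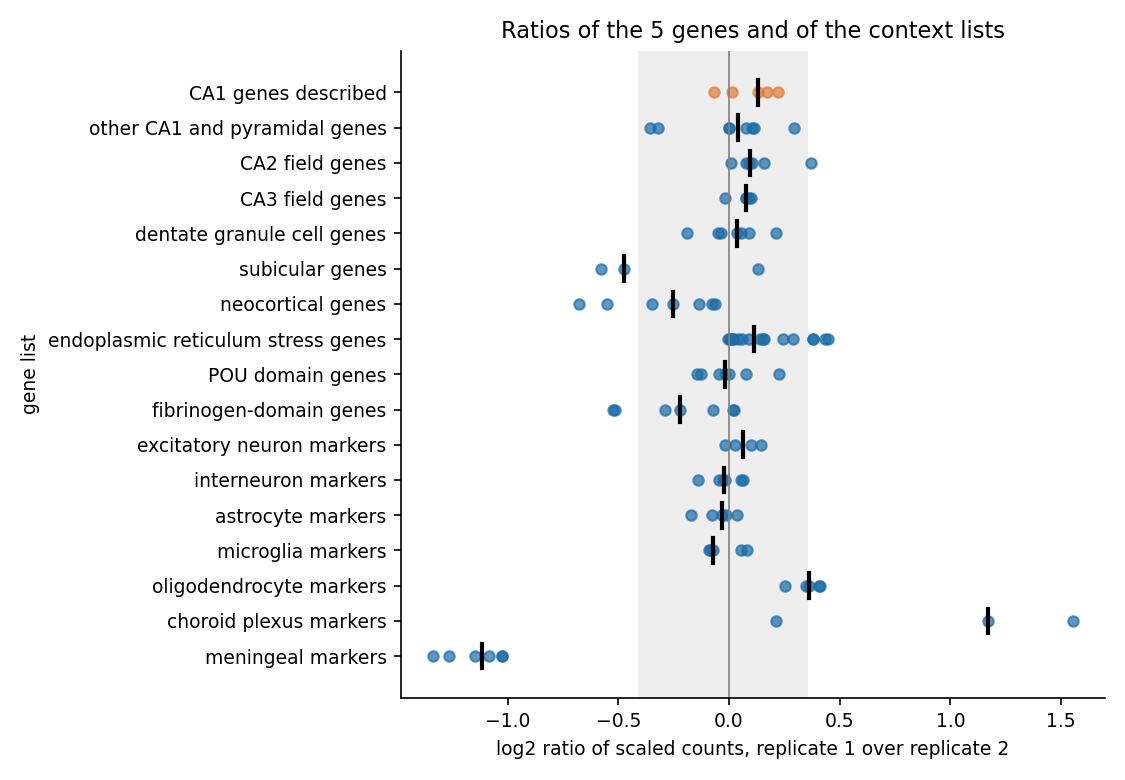
Log2 ratio of scaled counts, replicate 1 over replicate 2, for the genes of each list whose mean count reached 50, with the list median as a black bar. The 5 CA1 genes described are orange, and the grey band holds the middle 95% of all genes. The 5 genes lie inside the band, oligodendrocyte and choroid plexus medians lie to the right at 0.36 and 1.17, and meningeal genes lie to the left with a median of -1.12.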

How the data were processed

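Total RNA of hippocampus was measured in 2 libraries. Per the file headers, the deposited gene and transcript tables hold expected counts, posterior mean counts, TPM, FPKM and the percent of a gene's abundance per transcript in the RSEM layout, and estimated counts and TPM in the kallisto layout. The build was mm10 with GENCODE M21, per the deposited notes. Neither aligner, program version nor strand setting is given in the sources used here.

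Expected counts were rounded. The 96 ERCC rows, the phiX spike-in row and 26248 rows that carry a number but no gene (2.78 expected counts in replicate 1 and 6.00 in replicate 2) stayed out of library sizes. Scaling used edgeR 4.0.16 in R 4.3.3, with TMM factors on the genes filterByExpr kept, and the alternatives were library totals, the ERCC sum, size factors of DESeq2 1.42.0, no filter, other count minimums, a prior count of 2, posterior means, TPM, the kallisto layout and each library alone. Ratios use no prior count. Their 95% intervals are exact binomial ones given a gene's total over both libraries and hold counting error alone, since reads carry no molecular identifiers. FPKM, as deposited by the authors, was not used in a result. Other steps ran in Python 3.11.15 with scipy 1.17.1. The 2-fold rule was tested on simulated data with planted changes larger than 2-fold, so changes near 2-fold were not tried. Sequences came from GENCODE M21 transcripts and RefSeq promoter windows (GRCm38.p6), which held Mpped1, Wfs1 and Fibcd1. All 5 genes, their transcripts of at least 0.1 TPM and every gene of the context lists could be named. Some values within that rule are not reported here. Members and lists were chosen with earlier results of these data known.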

Additional observations from a re-analysis of the deposited data

How the results depend on the processing

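No paired analysis was possible because there is 1 group only. Mean levels in TPM were 56.5 for Wfs1, 44.5 for Fibcd1, 79.4 for Mpped1, 18.4 for Pou3f1 and 25.4 for Spink8. In the kallisto layout they were 89.3, 66.3, 155, 30.1 and 52.4 TPM, and rescaled over nuclear protein-coding genes, which removes other classes from the total, they were 138, 109, 195, 44.9 and 62.2 TPM. With either library left out, Wfs1 ranged from 54.5 to 58.5, Fibcd1 from 40.1 to 48.8, Mpped1 from 79.0 to 79.9, Pou3f1 from 16.9 to 19.9 and Spink8 from 23.8 to 27.1 TPM. Log2 ratios kept their sign under the 8 other scalings, quantifications and priors, and left their counting interval only with TPM as deposited, at 0.10 for Wfs1 and 0.28 for Fibcd1. By TPM as deposited Fibcd1 was thus past 1.2-fold, which it was not by scaled counts. The number of the 5 genes higher in replicate 1 was 4 throughout. The share of Wfs1-201, 64.8%, was 88.1% in the kallisto layout and 68.5% by expected counts, which are not divided by length. That of Mpped1-201, 84.6%, was 0.0588% in the kallisto layout, 91.5% by expected counts and 81.2% by posterior mean. That of Spink8-201, 59.6%, was 44.7%, 54.3% and 57.5% in the same order. The cause of the differences between layouts was not tested. With either library left out, these shares ranged from 63.8% to 65.7%, from 83.8% to 85.4% and from 59.0% to 60.3%. The 55 genes over 2-fold apart became 437 when genes down to a mean of 10 counts were let in and 15 when the mean had to reach 200. Spink8 is limited by its depth of 409 and 383 counts.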
